A study of Mus musculus with 12 samples.

Results

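The genes described here code for 9 proteins of the extracellular matrix that shape how stromal cells hold and remodel their surroundings: periostin (Postn), thrombospondin 1 and 2 (Thbs1, Thbs2), tenascin C (Tnc), fibulin 2 (Fbln2), elastin (Eln), lumican (Lum), matrix metalloproteinase 2 (Mmp2) and tissue inhibitor of metalloproteinases 3 (Timp3). Open chromatin around them was measured by ATAC-seq, in which a transposase cuts accessible DNA, in non-endothelial stromal cells (SCs) of mouse lymph nodes (LNs). A peak, that is a region where cuts pile up, was taken as belonging to a gene when the nearest protein-coding transcription start site (TSS) on GRCm38 was that of the gene. This gave 90 of the 42424 peaks: 17 for Thbs1, 16 for Tnc, 15 each for Thbs2 and Timp3, 8 each for Fbln2 and Mmp2, 6 for Eln, 3 for Postn and 2 for Lum. The nearest start site is a rule of position, and whether a peak acts on that gene was not measured.

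The cells were CD45- CD24- CD31- Pdpn+ cells, sorted from gut-draining mesenteric LNs (mLN) or from skin-draining peripheral LNs (pLN) of wild-type BALB/c mice, which lived either germ-free (GF) or with a microbiota free of specific pathogens (SPF). The groups were mLN-SPF (3 libraries), pLN-SPF (3), mLN-GF (3) and pLN-GF (2), with SPF mice of 7 to 12 weeks and GF mice of 6 to 10 weeks. The methods name a CD90.1 line on BALB/c for SPF mice and a colony derived by cesarean section elsewhere for GF mice, so housing, colony, line and age range cannot be told apart. The study's reporting form says that replicates of its bulk sequencing came from independent experiments, but not which library came from which animals or experiment, so p-values measure the spread between these libraries.

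Matricellular proteins such as periostin, the thrombospondins and tenascin C are secreted into the matrix, where they modulate adhesion and growth factor signals more than they bear load. Elastic fibers are built on a core of elastin, to which fibulins bind, and give tissue its recoil, while lumican is a small leucine-rich proteoglycan that controls the assembly of collagen fibrils. Mmp2 is a gelatinase that degrades matrix, and Timp3 codes for an inhibitor of metalloproteinases that stays bound to the matrix. In LNs, fibroblastic reticular cells ensheathe a conduit network of such fibers, and CD34+ SCs lie in the capsule and around larger vessels.

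The sequences below are the middle 300 bases of 5 of the peaks that differed between nodes. Of these, 3 were called under every alternative fit in SPF and in GF mice (Postn, Thbs1, Timp3). The others are the promoter peak of Lum and an upstream peak of Fbln2 with matches to 3 of the motifs searched. All 5 sequences were read 5′ to 3′ from the plus strand of the RefSeq copy of GRCm38.p6, and capitals mark a match to a searched motif. The number after the gene is the distance of the peak's centre from the nearest start site of that gene in kb, negative upstream. Where a gene has several annotated starts, distances within it can count from different ones.
Postn +103.0 kb, chr3:54480407-54480706: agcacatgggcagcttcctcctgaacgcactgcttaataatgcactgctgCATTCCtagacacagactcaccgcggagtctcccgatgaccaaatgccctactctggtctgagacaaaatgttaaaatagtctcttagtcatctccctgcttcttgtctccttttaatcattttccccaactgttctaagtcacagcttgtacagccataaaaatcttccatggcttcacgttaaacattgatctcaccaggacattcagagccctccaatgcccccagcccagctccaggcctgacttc
Thbs1 -47.1 kb, chr2:118064663-118064962: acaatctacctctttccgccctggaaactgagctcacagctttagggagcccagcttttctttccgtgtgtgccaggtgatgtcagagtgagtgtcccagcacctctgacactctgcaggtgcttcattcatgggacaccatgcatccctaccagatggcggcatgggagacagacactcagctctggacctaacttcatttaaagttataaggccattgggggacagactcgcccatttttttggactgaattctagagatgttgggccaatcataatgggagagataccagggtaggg
Timp3 -52.2 kb, chr10:86248019-86248318: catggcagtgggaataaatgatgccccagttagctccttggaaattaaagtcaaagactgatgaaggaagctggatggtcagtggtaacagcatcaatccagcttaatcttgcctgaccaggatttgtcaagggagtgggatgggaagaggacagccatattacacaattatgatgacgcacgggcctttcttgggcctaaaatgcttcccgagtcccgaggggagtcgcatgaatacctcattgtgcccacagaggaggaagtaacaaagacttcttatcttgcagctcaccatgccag
Lum +0.5 kb, chr10:97565485-97565784: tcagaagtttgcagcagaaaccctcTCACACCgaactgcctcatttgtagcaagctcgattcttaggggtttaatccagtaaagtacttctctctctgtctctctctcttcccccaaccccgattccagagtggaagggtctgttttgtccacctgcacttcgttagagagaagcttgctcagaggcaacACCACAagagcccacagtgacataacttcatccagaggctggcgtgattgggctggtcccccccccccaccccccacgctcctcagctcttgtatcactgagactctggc
Fbln2 -4.8 kb, chr6:91207516-91207815: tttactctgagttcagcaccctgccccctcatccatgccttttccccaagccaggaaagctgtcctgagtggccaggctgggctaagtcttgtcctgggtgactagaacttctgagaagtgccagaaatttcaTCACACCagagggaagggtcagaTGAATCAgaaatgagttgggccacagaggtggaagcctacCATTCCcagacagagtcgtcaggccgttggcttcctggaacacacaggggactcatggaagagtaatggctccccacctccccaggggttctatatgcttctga
The capitals mark CATTCC, the reverse complement of the TEAD motif GGAATG, in the Postn window, and no motif of the list matched in the Thbs1 or Timp3 window. In the Lum window they mark TCACACC (T-box motif GGTGTGA on the other strand) and ACCACA (RUNX motif TGTGGT on the other strand). In the Fbln2 window they mark a T-box match, the AP-1 match TGAATCA (motif TGANTCA) and a TEAD match.

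In all, 8 motifs were searched on both strands in such 300-base windows: those above, CACTTNA (NKX2), CAGCTG (the E-box of TCF21-type factors), TGACAG (MEIS) and TAATTA (homeodomain). No motif contains another, although matches may overlap. Among the 90 windows, 21 held the AP-1 motif (23.3%, against 18.3% of 42336 windows over all peaks), 23 the TEAD motif (25.6%, against 18.4%), 13 the RUNX motif (14.4%, against 16.7%), 15 the NKX2 motif (16.7%, against 12.6%), 25 the E-box (27.8%, against 21.9%), 26 the MEIS motif (28.9%, against 19.1%), 5 the homeodomain motif (5.56%, against 4.88%) and 4 the T-box motif (4.44%, against 3.61%). These matches are a description of letters and say nothing of binding.

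Values are RPKM, reads scaled to the length of the peak and the depth of the library. Fold changes are given as log2 of mLN over pLN or of SPF over GF, on log2(RPKM + 1), where the change of a weak peak comes out too small. A peak was counted as a differentially accessible region (DAR) when it changed at least 2-fold and passed an adjusted p of 0.05 (Benjamini-Hochberg, over all 42424 peaks), and every adjusted p below is from limma with all 11 libraries unless a library is named as left out. The libraries held 2886129 to 10380493 reads in peaks. The median peak of these genes held 31.0 to 132.5 reads per library, and 1 of the 90 had no read in 1 library. The first principal component (51.5% of the variance) put mLN libraries at -95.6 to -27.4 and pLN libraries at 50.3 to 96.6, and mLN-SPF replicate 2 (-27.4) and mLN-GF replicate 2 (-38.5) lay nearest to pLN.

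The sort and the marker genes bear on every comparison between nodes. Pdgfra, Pdgfrb and Ltbr had promoter peaks of 45.5 to 46.5 RPKM on average in mLN-SPF and 45.0 to 55.5 RPKM in pLN-SPF, while the sort marker Pdpn and Thy1 had no peak within 1 kb of a start. The summed promoter RPKM of the CD34+ SC markers with such a peak (4 of 8 genes) was 142 to 176 in mLN-SPF libraries and 90.1 to 103 in pLN-SPF libraries. In GF mice it was 114 to 142 in mLN and 92.0 to 104 in pLN. That of perivascular and smooth muscle markers (7 of 10) lay at 164 to 226 in mLN-SPF libraries, below the 261 to 315 of pLN-SPF libraries, and in GF mice at 185 to 232 in mLN, below the 307 to 327 of pLN. Of the 5 mesothelial markers only Wt1 had a promoter peak, with 48.1 to 58.3 RPKM in mLN-SPF libraries, against 9.76 to 18.1 in those of pLN-SPF, and with 46.1 to 60.9 RPKM in mLN-GF libraries, against 14.3 to 17.5 in those of pLN-GF. The T zone reticular cell markers with a promoter peak (3 of 5, without Ccl19 and Ccl21a) summed to 89.2 to 95.5 for mLN-SPF, below pLN-SPF with 108 to 126, while mLN-GF with 101 to 121 overlapped pLN-GF with 118 to 126. Of markers of cells the sort should remove, Pecam1, Cdh5, Ptprc, Cd3e and Epcam had no promoter peak, while others had one. The blood endothelial markers Kdr, Tek and Erg summed to 72.1 to 99.4 RPKM in mLN-SPF and 56.9 to 79.6 in pLN-SPF. In GF mice they summed to 71.7 to 93.7 in mLN, above the 58.5 to 62.1 of pLN. Kdr alone had lower means in mLN, 16.7 RPKM against 18.9 in SPF mice and 18.1 against 19.0 in GF mice. Of all 29 peaks at the 6 blood endothelial genes listed, 2 were DARs higher and 7 lower in mLN-SPF (6.9% and 24.1%, against 6.49% and 4.27% of all peaks). The lymphatic endothelial markers Prox1 and Flt4 summed to 41.2 to 78.9 RPKM in mLN-SPF and 24.1 to 64.1 in pLN-SPF, and to 45.9 to 70.1 in mLN-GF and 40.1 to 73.3 in pLN-GF, so the nodes overlapped. The sort marker Cd24a lay at 27.5 to 45.5 RPKM in mLN-SPF and 34.0 to 40.2 in pLN-SPF, and at 31.4 to 38.3 in mLN-GF and 33.3 to 35.0 in pLN-GF. The nodes thus differed in several marker sums, and their part in the results below was not tested. In bulk cells, a larger share of cells with an open region and more opening per cell cannot be told apart.

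The first comparison asked whether the site of a node sets the chromatin around matrix genes. In SPF mice all 9 genes had at least 1 DAR, and 5 of them (Thbs1, Thbs2, Tnc, Fbln2, Eln) had DARs in both directions. Of the 90 peaks, 13 were DARs higher in mLN-SPF than in pLN-SPF, where 6.49% of all peaks were, and 11 were DARs lower, where 4.27% of all peaks were. The median log2 fold change was -0.08 over the 90 peaks and 0.004 over all peaks. In GF mice 13 peaks were DARs higher in mLN-GF (8.55% of all peaks) and 10 lower (4.62% of all peaks). Averaged over housing, 16 were higher (9.43% of all peaks) and 13 lower (6.05% of all peaks). The mLN-SPF and pLN-SPF libraries did not overlap at 47 of the 90 peaks, as at 33.1% of all peaks, and the mLN-GF and pLN-GF libraries did not at 57, as at 48.8% of all peaks.

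Most of the 90 peaks lay away from promoters, with 51 intergenic, 27 in introns, 1 in a coding exon and 11 within 1 kb of a start. In SPF mice 23 of the 79 peaks outside promoters were DARs, where 14.8% of all such peaks were, and 1 of 11 promoter peaks was, where 1.46% of all promoter peaks were. The counts moved with single libraries, and so did those over all 42424 peaks. With all libraries, 2754 of all peaks were higher and 1813 lower in mLN-SPF. Without mLN-SPF replicate 3 these were 1556 and 988, and without mLN-SPF replicate 1 they were 1931 and 1155. Without pLN-SPF replicate 1 they were 1804 and 868, and without pLN-SPF replicate 2 1567 and 723. In GF mice, 1959 of all peaks were lower in mLN, and 958 without mLN-GF replicate 3. The counts that follow are of the 90 peaks. In SPF mice, 3 peaks were called higher and 7 lower without mLN-SPF replicate 3, 5 higher and 7 lower without pLN-SPF replicate 1, 5 higher and 6 lower without pLN-SPF replicate 2, and 7 higher without mLN-SPF replicate 1. In GF mice, 6 were called lower without mLN-GF replicate 3. With either pLN-GF library left out, fewer were called in both directions, among the 90 peaks and among all peaks. With pLN-GF reduced to 1 library, that library is assumed to vary like the other groups. Averaged over housing, the counts stayed between 15 and 16 higher and between 11 and 16 lower with any 1 library left out. Without both mLN libraries numbered 2, 10 peaks were called higher and 16 lower in SPF mice (2990 and 2876 of all peaks). In GF mice 14 were then called higher and 14 lower (3820 and 2656 of all peaks).

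**Figure D1:**
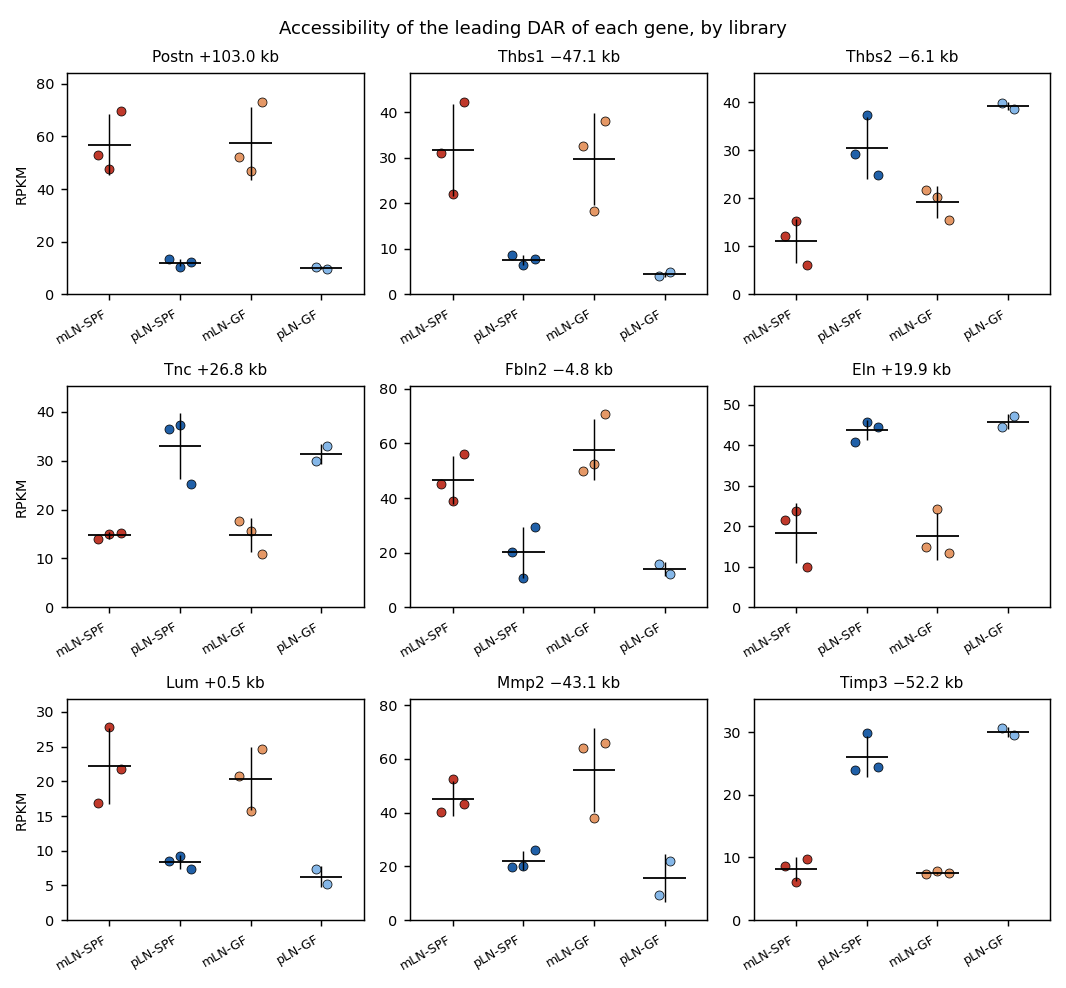
Accessibility (RPKM, linear axis from 0) of the DAR with the lowest adjusted p in SPF mice for each of the 9 genes. Points are the 11 libraries, horizontal lines group means and vertical lines ± 1 SD. Postn, Thbs1, Fbln2, Lum and Mmp2 are higher in mLN and Thbs2, Tnc, Eln and Timp3 higher in pLN, with no overlap between nodes within a housing condition.

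Postn had 3 peaks, and they behaved in 3 ways. Periostin is secreted by fibroblasts, binds integrins and collagen, and is known for its rise in remodeling tissue. The +103.0 kb peak (chr3:54480335-54480778, intergenic) has its distance from a start inside the gene (chr3:54377560), not from that of the promoter peak (chr3:54361109). It held 53.0, 47.7 and 69.8 RPKM in mLN-SPF, against 13.3, 10.5 and 12.5 RPKM in pLN-SPF. In GF mice it held 52.3, 46.9 and 73.2 RPKM in mLN-GF, against 10.5 and 9.69 RPKM in pLN-GF. Every mLN library was thus above every pLN library, whatever the housing. The log2 fold change was 2.13 ± 0.23 (SE, adjusted p = 0.00069) in SPF mice and 2.37 ± 0.25 (adjusted p = 0.000208) in GF mice. With any 1 library left out it stayed between 1.97 and 2.24 in SPF mice and between 2.19 and 2.50 in GF mice, and it remained a DAR. It had the lowest adjusted p of the 90 peaks in both.

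The Postn promoter peak at -0.1 kb (chr3:54360913-54361147) held 49.7, 56.4 and 78.0 RPKM in mLN-SPF, against 36.1, 36.2 and 43.1 RPKM in pLN-SPF. These libraries did not overlap, but the log2 fold change of 0.64 ± 0.19 (adjusted p = 0.0396) was under 2-fold. In GF mice its log2 fold change was 0.67 ± 0.21 (adjusted p = 0.0501). The strongest Postn peak, at -2.3 kb (chr3:54358507-54359061), held 48.0, 68.3 and 73.0 RPKM in mLN-SPF, against 66.4, 72.7 and 70.7 RPKM in pLN-SPF. The nodes overlapped there, with a log2 fold change of -0.17 ± 0.16 (adjusted p = 0.523).

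Thbs1 had 17 peaks, of which 4 were DARs higher and 1 lower in mLN-SPF. Thrombospondin 1 activates latent TGF-beta and inhibits angiogenesis, and it binds CD47 and CD36. The DARs higher in mLN all lay between 61.4 and 20.3 kb upstream of the start, and the DARs lower in mLN lay far upstream, at -367.8 kb in SPF mice and at -365.9 and -331.3 kb in GF mice. The -47.1 kb peak (chr2:118064412-118065213) held 31.0, 22.0 and 42.2 RPKM in mLN-SPF, against 8.57, 6.36 and 7.74 RPKM in pLN-SPF. In GF mice it held 32.6, 18.4 and 38.1 RPKM in mLN-GF, against 3.95 and 4.83 RPKM in pLN-GF. The lowest mLN libraries at this peak were the 2 numbered 2, and both were still above all pLN libraries. Its log2 fold change was 1.90 ± 0.34 (adjusted p = 0.00419) in SPF mice and 2.45 ± 0.38 (adjusted p = 0.00116) in GF mice, and it stayed between 1.68 and 2.13 and between 2.25 and 2.75 with any 1 library left out.

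The neighboring Thbs1 peaks moved the same way with less certainty. At -20.3 kb (chr2:118091241-118091941) the means were 20.4 ± 7.77 RPKM in mLN-SPF and 6.22 ± 4.72 RPKM in pLN-SPF (SD, n = 3 each), with a log2 fold change of 1.69 ± 0.43 (limma, adjusted p = 0.0194) in SPF mice and 1.78 ± 0.48 (adjusted p = 0.0227) in GF mice. The SPF call ended without any of mLN-SPF replicates 1 and 3 and pLN-SPF replicates 1 and 2 (log2 1.39 to 1.65, adjusted p = 0.0614 to 0.085). The GF call ended without mLN-GF replicate 1 or 3 or either pLN-GF library (log2 1.63 to 1.82, adjusted p = 0.0623 to 0.137). At -61.4 kb (chr2:118050381-118050508) the log2 fold change was 1.41 ± 0.38 (adjusted p = 0.0266) in SPF mice, where the libraries held only 2 to 9 reads each, and 2.05 ± 0.43 (adjusted p = 0.00617) in GF mice. That SPF call ended without any of mLN-SPF replicates 1 and 3 and pLN-SPF replicates 1 and 2 (log2 1.21 to 1.52, adjusted p = 0.0501 to 0.104), and the GF call without pLN-GF replicate 1 (log2 2.03, adjusted p = 0.0525).

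The other DAR of this stretch, at -32.6 kb (chr2:118079191-118079437), was named after its values were seen, as were those at +11.2 kb of Thbs2 and +14.9 kb of Timp3, since the rule stops at 3 peaks a direction in SPF mice and 2 in GF mice. Its log2 fold change was 1.54 ± 0.49 (adjusted p = 0.0476) in SPF mice and 2.14 ± 0.54 (adjusted p = 0.0172) in GF mice. It held 30.7, 17.1 and 20 RPKM in mLN-SPF, against 3.09, 5.59 and 17.2 RPKM in pLN-SPF, so that the SPF groups overlapped. The SPF call ended without any 1 of 9 of the 11 libraries (log2 1.07 to 1.60, adjusted p = 0.05 to 0.189), the exceptions being mLN-SPF replicate 2 and pLN-SPF replicate 3. The GF call ended without mLN-GF replicate 3 or either pLN-GF library (log2 1.74 to 2.54, adjusted p = 0.0502 to 0.159). The peak at -52.8 kb, which lies among them, was not called, with a log2 fold change of 0.78 ± 0.43 (adjusted p = 0.247) in SPF mice.

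The far upstream Thbs1 DARs were lower in mLN, but other peaks there did not all go this way. At -271.3 kb accessibility averaged 63.6 RPKM in mLN-SPF and 33.8 RPKM in pLN-SPF, without overlap but under 2-fold (log2 0.88 ± 0.27, adjusted p = 0.042). In GF mice the log2 fold change there was 0.16 ± 0.30 (adjusted p = 0.772). The -273.2 kb peak differed little in SPF mice (log2 0.02 ± 0.45, adjusted p = 0.985). At -367.8 kb (chr2:117743888-117744255) accessibility was 10, 12 and 14.4 RPKM in mLN-SPF, against 34.0, 26.6 and 37.3 RPKM in pLN-SPF. The GF values were 20.8, 35.9 and 26.9 RPKM in mLN-GF, against 48.1 and 39.4 RPKM in pLN-GF. The groups did not overlap in either housing condition. This gave a log2 fold change of -1.35 ± 0.25 (adjusted p = 0.0046) in SPF mice, a DAR with any 1 library left out (-1.49 to -1.24), and -0.66 ± 0.28 (adjusted p = 0.125) in GF mice. At -365.9 kb (chr2:117745785-117746129) it was -1.53 ± 0.42 (adjusted p = 0.026) in GF mice and at -331.3 kb (chr2:117780095-117781048) -1.20 ± 0.34 (adjusted p = 0.0281). Both GF calls ended without either pLN-GF library, the first also without mLN-GF replicate 1 (log2 -1.61 to -1.01, adjusted p = 0.0618 to 0.154) and the second also without mLN-GF replicate 3 (log2 -1.38 to -1.02, adjusted p = 0.0856 to 0.219). The strongest Thbs1 peak (-72.4 kb, chr2:118038866-118040152) averaged 76.2 ± 6.47 RPKM in mLN-SPF and 74.5 ± 6.36 RPKM in pLN-SPF (SD, n = 3 each), with a log2 fold change of 0.03 ± 0.17 (limma, adjusted p = 0.923). It lay between the DARs that were lower and those that were higher in mLN.

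Thbs2 had 15 peaks, of which 2 were DARs higher and 1 lower in mLN-SPF. Thrombospondin 2 is a fibroblast product that limits angiogenesis and takes part in collagen fibril assembly. The -6.1 kb peak (chr17:14700216-14700505) held 12.1, 15.2 and 6.08 RPKM in mLN-SPF, against 29.3, 37.4 and 24.8 RPKM in pLN-SPF. GF libraries held 21.8, 20.4 and 15.5 RPKM in mLN-GF, against 39.9 and 38.6 RPKM in pLN-GF. All mLN libraries were below all pLN libraries. The peak differed by a log2 fold change of -1.44 ± 0.31 (adjusted p = 0.00876) in SPF mice, a DAR with any 1 library left out (-1.69 to -1.09), and -1.0 ± 0.34 (adjusted p = 0.0608) in GF mice.

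The DARs downstream of the Thbs2 start were higher in mLN. The +188.6 kb peak (chr17:14505467-14505806) held 29.8, 14.6 and 29.0 RPKM in mLN-SPF, against 2.53, 3.12 and 11.5 RPKM in pLN-SPF. Among GF libraries there were 24.1, 19.7 and 24.3 RPKM in mLN-GF, against 2.74 and 0.422 RPKM in pLN-GF, the last of which is 1 read. These groups did not overlap, and in SPF mice the lowest mLN library (replicate 2) and the highest pLN library (replicate 3) lay close together. The log2 fold change was 2.10 ± 0.52 (adjusted p = 0.017) in SPF mice and 3.35 ± 0.58 (adjusted p = 0.00209) in GF mice, the largest of the 90 peaks in GF mice. In SPF mice the call ended without any of mLN-SPF replicates 1 and 3 and pLN-SPF replicates 1 and 2 (log2 1.76 to 1.95, adjusted p = 0.0657 to 0.0741), and the GF value stayed a DAR, between 2.66 and 4.05. At +34.3 kb (chr17:14659822-14660052) the log2 fold change was 1.20 ± 0.28 (adjusted p = 0.0122) in SPF mice and 1.23 ± 0.31 (adjusted p = 0.0156) in GF mice. It fell under 2-fold without mLN-SPF replicate 3 (log2 0.86, adjusted p = 0.0479), and the GF call ended without mLN-GF replicate 3 or either pLN-GF library (log2 1.08 to 1.36, adjusted p = 0.0653 to 0.124). The +11.2 kb peak of Thbs2 (chr17:14682813-14683172) was a DAR in GF mice alone, at a log2 fold change of 1.60 ± 0.41 (adjusted p = 0.0178), with 0.84 ± 0.37 (adjusted p = 0.138) in SPF mice. That GF call ended without mLN-GF replicate 3 or either pLN-GF library (log2 1.35 to 1.85, adjusted p = 0.0531 to 0.166). Between these DARs, the +53.4 kb peak of Thbs2 was not called and had a log2 fold change of -0.61 (adjusted p = 0.115) in SPF mice and -0.72 (adjusted p = 0.0972) in GF mice. The Thbs2 promoter peak at +0.3 kb was lower in mLN, although not by 2-fold, and is given with the promoters below. The strongest Thbs2 peak (-24.8 kb, chr17:14718779-14719243) had a log2 fold change of 0.24 ± 0.18 (adjusted p = 0.396).

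Tnc had 16 peaks reaching 510.6 kb upstream, of which 1 was a DAR higher and 2 lower in mLN-SPF. Tenascin C is an adhesion-modulating glycoprotein of lymphoid conduits and of healing tissue. The intronic +26.8 kb peak (chr4:63993459-63994340) has its distance from a start inside the gene (chr4:64020725). It held 13.9, 15.0 and 15.2 RPKM in mLN-SPF, against 36.5, 37.2 and 25.2 RPKM in pLN-SPF. In GF mice the peak held 17.7, 15.7 and 11 RPKM in mLN-GF, against 30.0 and 32.9 RPKM in pLN-GF. The mLN libraries were close to each other and all below the pLN libraries. This gave a log2 fold change of -1.09 ± 0.25 (adjusted p = 0.0124) in SPF mice and -1.06 ± 0.28 (adjusted p = 0.0206) in GF mice. The call in SPF mice was lost without pLN-SPF replicate 1 or 2 (log2 -1.01 to -1.0, adjusted p = 0.0633 to 0.0675), and the GF call without mLN-GF replicate 3 or either pLN-GF library (log2 -1.13 to -0.88, adjusted p = 0.0664 to 0.147).

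The -95.4 kb peak of Tnc (chr4:64142249-64142587) held 20.1, 24.4 and 27.0 RPKM in mLN-SPF, against 11.5, 7.21 and 5.78 RPKM in pLN-SPF. Its mLN libraries were all above its pLN libraries, with a log2 fold change of 1.48 ± 0.36 (adjusted p = 0.0154) in SPF mice and 1.81 ± 0.40 (adjusted p = 0.00818) in GF mice. The SPF call ended without replicate 3 of mLN-SPF or replicate 2 of pLN-SPF (log2 1.38 to 1.42, adjusted p = 0.0558 to 0.0562), and the GF call without pLN-GF replicate 3 (log2 1.64, adjusted p = 0.0826). At -235.7 kb (chr4:64282451-64282948) the log2 fold change was -1.31 ± 0.35 (adjusted p = 0.0237) in SPF mice and -1.39 ± 0.39 (adjusted p = 0.027) in GF mice. In SPF mice the call ended without any of mLN-SPF replicates 1 and 3 and pLN-SPF replicates 1 and 2 (log2 -1.38 to -0.98, adjusted p = 0.0502 to 0.121). The GF call ended without mLN-GF replicate 1 or 3 or either pLN-GF library (log2 -1.39 to -1.23, adjusted p = 0.066 to 0.153). The strongest Tnc peak, at -450.9 kb (chr4:64497784-64498104), ranged from 65.9 to 134 RPKM within mLN-SPF and from 61.5 to 110 RPKM within pLN-SPF, with a log2 fold change of 0.42 ± 0.31 (adjusted p = 0.386).

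**Figure D2:**
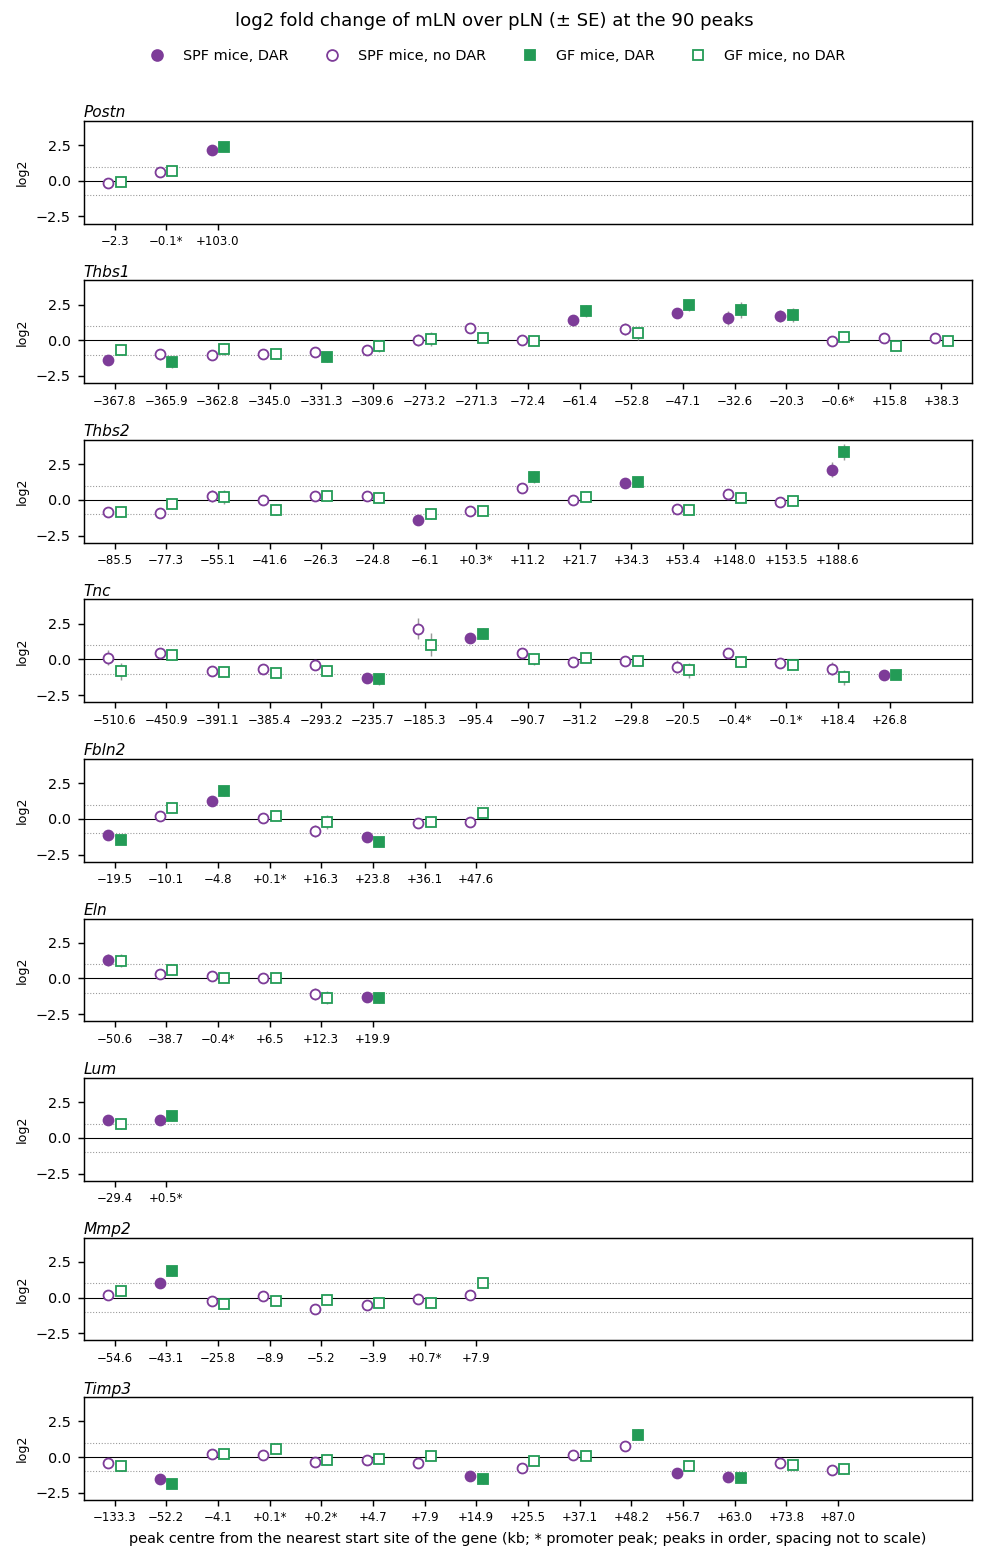
The log2 fold change of mLN over pLN (± SE, on log2(RPKM + 1)) at all 90 peaks, in order of distance from the nearest start of the gene, given in kb below (spacing not to scale, * promoter peak). Circles are SPF mice, squares GF mice, filled symbols DARs, and dotted lines mark 2-fold. In Thbs1 the 4 DARs higher in mLN lie together between -61.4 and -20.3 kb, and the DARs lower in mLN lie at -331.3 kb or farther upstream.

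Fbln2 had 8 peaks, of which 1 was a DAR higher and 2 lower in mLN, in SPF and in GF mice alike. Fibulin 2 binds elastin, fibrillin and fibronectin at the surface of elastic fibers. The -4.8 kb peak (chr6:91207465-91207866) held 45.0, 38.9 and 56.1 RPKM in mLN-SPF, against 20.4, 10.8 and 29.3 RPKM in pLN-SPF. The GF values were 49.9, 52.6 and 70.6 RPKM in mLN-GF, against 15.8 and 12.1 RPKM in pLN-GF. All mLN libraries were higher, and the spread among pLN-SPF libraries was wide. The peak differed by a log2 fold change of 1.26 ± 0.29 (adjusted p = 0.0138) in SPF mice and 1.97 ± 0.33 (adjusted p = 0.00178) in GF mice. The call in SPF mice was lost without replicate 3 of mLN-SPF or replicate 2 of pLN-SPF (log2 0.89 to 1.12, adjusted p = 0.0553 to 0.0566), while the GF value remained a DAR at 1.79 to 2.14.

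A pair of other Fbln2 peaks, at -19.5 and +23.8 kb, were lower in mLN. The -19.5 kb peak (chr6:91192492-91193371) held 13.7, 12.8 and 12.8 RPKM in mLN-SPF, against 26.9, 29.1 and 31.6 RPKM in pLN-SPF. The libraries of each group lay close together and far from the other node's, with a log2 fold change of -1.10 ± 0.26 (adjusted p = 0.0148) in SPF mice and -1.49 ± 0.29 (adjusted p = 0.00426) in GF mice. It was no longer called without pLN-SPF replicate 2 (log2 -1.10, adjusted p = 0.0582) in SPF mice, nor without pLN-GF replicate 3 (log2 -1.37, adjusted p = 0.0638) in GF mice. The +23.8 kb peak in an intron of Fbln2 (chr6:91236479-91236777) had a log2 fold change of -1.28 ± 0.31 (adjusted p = 0.0156) in SPF mice and -1.60 ± 0.35 (adjusted p = 0.00734) in GF mice. The SPF call ended without replicate 1 of mLN-SPF or replicate 3 of pLN-SPF (log2 -1.13 to -0.93, adjusted p = 0.0508 to 0.0554), and the GF call without either pLN-GF library (log2 -1.66 to -1.54, adjusted p = 0.0571 to 0.0779). The strongest Fbln2 peak (+36.1 kb, chr6:91248652-91249121, intron) had a log2 fold change of -0.28 ± 0.21 (adjusted p = 0.386).

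Eln, the gene of the elastin core, had 6 peaks, with 1 DAR in each direction in SPF mice. The intronic +19.9 kb peak (chr5:134727066-134727849) held 21.6, 23.7 and 9.89 RPKM in mLN-SPF, against 40.9, 45.7 and 44.6 RPKM in pLN-SPF. GF libraries held 14.8, 24.2 and 13.5 RPKM in mLN-GF, against 44.5 and 47.2 RPKM in pLN-GF. The pLN libraries were all above 40 RPKM and the mLN libraries all below 25. The log2 fold change was -1.29 ± 0.30 (adjusted p = 0.0131) in SPF mice and -1.38 ± 0.34 (adjusted p = 0.0136) in GF mice. In SPF mice the call ended without mLN-SPF replicate 3 (under 2-fold) or pLN-SPF replicate 2 (log2 -1.26 to -0.92, adjusted p = 0.0413 to 0.0528), and the GF call without mLN-GF replicate 3 or either pLN-GF library (log2 -1.43 to -1.23, adjusted p = 0.0523 to 0.102). At -50.6 kb (chr5:134797738-134798043) the log2 fold change was 1.30 ± 0.41 (adjusted p = 0.0489) in SPF mice and 1.26 ± 0.46 (adjusted p = 0.0813) in GF mice. This SPF call ended without any 1 of the libraries other than pLN-SPF replicate 3 (log2 0.80 to 1.41, adjusted p = 0.0568 to 0.198).

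Lum had the only promoter DAR of the 9 genes, and its other peak was a DAR too. Lum lies beside the related proteoglycan genes keratocan and decorin on the same chromosome. The promoter peak at +0.5 kb (chr10:97565456-97565812) held 16.9, 27.8 and 21.7 RPKM in mLN-SPF, against 8.56, 9.22 and 7.32 RPKM in pLN-SPF. Among GF libraries there were 20.7, 15.7 and 24.7 RPKM in mLN-GF, against 7.31 and 5.22 RPKM in pLN-GF. Every mLN library lay above every pLN library. This gave a log2 fold change of 1.28 ± 0.31 (adjusted p = 0.0164) in SPF mice and 1.55 ± 0.35 (adjusted p = 0.00958) in GF mice. The call in SPF mice was lost without pLN-SPF replicate 1 (log2 1.30, adjusted p = 0.0525) or without both mLN libraries numbered 2 (log2 1.11, adjusted p = 0.0506), and the GF call without pLN-GF replicate 3 (log2 1.34, adjusted p = 0.0996). At -29.4 kb (chr10:97535440-97536051) the log2 fold change was 1.24 ± 0.32 (adjusted p = 0.022) in SPF mice and 0.97 ± 0.36 (adjusted p = 0.0849) in GF mice. The SPF call at this peak ended without any of mLN-SPF replicates 1 and 3 and pLN-SPF replicates 1 and 2 (log2 1.01 to 1.34, adjusted p = 0.0515 to 0.0876).

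Mmp2 had 8 peaks, of which 1 was a DAR, higher in mLN. The -43.1 kb peak (chr8:92783966-92784464) held 40.2, 52.4 and 43.1 RPKM in mLN-SPF, against 19.9, 20.2 and 26.2 RPKM in pLN-SPF. In GF mice the peak held 64.0, 38 and 65.9 RPKM in mLN-GF, against 9.34 and 21.9 RPKM in pLN-GF. The nodes did not overlap. The peak differed by a log2 fold change of 1.00 ± 0.29 (adjusted p = 0.033) in SPF mice, at the 2-fold threshold, and 1.85 ± 0.32 (adjusted p = 0.00218) in GF mice. The SPF call ended without any mLN-SPF library or without pLN-SPF replicate 1 or 2 (log2 0.89 to 1.08, adjusted p = 0.0619 to 0.106), and the GF value remained a DAR at 1.28 to 2.42. The strongest Mmp2 peak (-8.9 kb, chr8:92818170-92818568) held 52.7, 42.9 and 40.6 RPKM in mLN-SPF, against 40.4, 43.9 and 42.6 RPKM in pLN-SPF, a log2 fold change of 0.09 ± 0.18 (adjusted p = 0.776).

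Timp3 was the gene with DARs in SPF mice on the pLN side only, 4 of its 15 peaks being lower in mLN-SPF and none higher. It lies inside an intron of Syn3, so that its peaks at a distance lay in introns of that gene. The -52.2 kb peak (chr10:86247989-86248348) held 8.65, 6.14 and 9.79 RPKM in mLN-SPF, against 23.9, 29.8 and 24.5 RPKM in pLN-SPF. The GF values were 7.33, 7.77 and 7.49 RPKM in mLN-GF, against 30.6 and 29.5 RPKM in pLN-GF. The 2 nodes were far apart and the libraries of each close together. The log2 fold change was -1.57 ± 0.28 (adjusted p = 0.00419) in SPF mice and -1.86 ± 0.31 (adjusted p = 0.00181) in GF mice, with -1.70 to -1.40 and -1.89 to -1.84 when any 1 library was left out.

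The +63.0 kb peak of Timp3 (chr10:86365613-86366042) held 11.8, 12 and 8.2 RPKM in mLN-SPF, against 29.3, 31.4 and 27.4 RPKM in pLN-SPF. The nodes were again apart, with a log2 fold change of -1.40 ± 0.27 (adjusted p = 0.00627) in SPF mice, a DAR with any 1 library left out, and -1.45 ± 0.31 (adjusted p = 0.00651) in GF mice. The GF call ended without either pLN-GF library (log2 -1.48 to -1.41, adjusted p = 0.0582 to 0.0695). At +56.7 kb (chr10:86359129-86359943) the log2 fold change was -1.14 ± 0.25 (adjusted p = 0.011) in SPF mice and -0.66 ± 0.28 (adjusted p = 0.137) in GF mice, and the SPF call ended without replicate 3 of mLN-SPF or replicate 1 of pLN-SPF (log2 -1.04 to -0.85, adjusted p = 0.0381 to 0.0536). The peak at +14.9 kb (chr10:86317515-86317964) was lower in mLN too, by a log2 fold change of -1.34 ± 0.32 (adjusted p = 0.0147) in SPF mice and -1.52 ± 0.36 (adjusted p = 0.0112) in GF mice. The SPF call ended without replicate 3 of mLN-SPF or replicate 1 or 2 of pLN-SPF (log2 -1.31 to -1.12, adjusted p = 0.0541 to 0.0655), and the GF call without either pLN-GF library (log2 -1.67 to -1.38, adjusted p = 0.0578 to 0.119). In between, the peak at +48.2 kb (chr10:86350861-86351214) was higher in mLN-GF by a log2 fold change of 1.56 ± 0.38 (adjusted p = 0.0128), and by 0.79 ± 0.34 (adjusted p = 0.127) in SPF mice. That GF call ended without either pLN-GF library (log2 1.40 to 1.72, adjusted p = 0.0557 to 0.116).

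Of all 24 DARs in SPF mice, 6 kept the call under every alternative fit: the Postn peak at +103.0 kb, the Thbs1 peaks at -47.1 and -367.8 kb, the Thbs2 peak at -6.1 kb and the Timp3 peaks at -52.2 and +63.0 kb. Of all 23 in GF mice, 6 kept it: the Postn peak at +103.0 kb, the Thbs1 peak at -47.1 kb, the Thbs2 peak at +188.6 kb, the Fbln2 peak at -4.8 kb, the Mmp2 peak at -43.1 kb and the Timp3 peak at -52.2 kb. The alternative of peaks within 100 kb changes only which peaks are counted and was set aside here. It leaves out the peaks at Postn +103.0 kb, Thbs1 -367.8 kb and Thbs2 +188.6 kb. Apart from libraries left out, a pseudocount of 5 took 7 SPF calls (Thbs1 -61.4 kb, Tnc +26.8 kb, Fbln2 -19.5 kb, Eln -50.6 kb, Lum -29.4 kb, Mmp2 -43.1 kb, Timp3 +56.7 kb) and 2 GF calls (Thbs1 -331.3 kb, Tnc +26.8 kb) under 2-fold. A fit of only the groups compared ended the SPF calls of Thbs1 -20.3 kb and -32.6 kb, Eln -50.6 kb and Lum -29.4 kb (adjusted p = 0.0558 to 0.0892), and limma-voom that of Thbs1 -61.4 kb (adjusted p = 0.0792). Median centring and quantile normalization took Mmp2 -43.1 kb just under 2-fold in SPF mice (log2 0.99 and 0.95), a pseudocount of 0.5 ended the Eln -50.6 kb call (adjusted p = 0.0519), and leaving out both mLN libraries numbered 2 ended the SPF calls of Thbs1 -32.6 kb, Eln -50.6 kb, Lum +0.5 kb and Mmp2 -43.1 kb (adjusted p = 0.0506 to 0.0692). None of these DARs changed direction under any alternative run.

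The promoters of these genes differed less between nodes. Those of Thbs1 (-0.6 kb, chr2:118110346-118112200), Tnc (-0.1 kb, chr4:64046775-64047406), Fbln2 (+0.1 kb, chr6:91212557-91213211), Eln (-0.4 kb, chr5:134746981-134748472), Mmp2 (+0.7 kb, chr8:92827149-92828774) and Timp3 (+0.1 kb from another annotated start, chr10:86302854-86303001) had adjusted p of 0.373 to 0.87 in SPF mice, and the further promoter peaks of Tnc (-0.4 kb) and Timp3 (+0.2 kb) had 0.428 and 0.259. The Thbs1 promoter averaged 42.7 ± 3.24 RPKM in mLN-SPF and 45.3 ± 4.42 RPKM in pLN-SPF (SD, n = 3 each). That of Eln averaged 41.2 ± 7.73 RPKM in mLN-SPF and 35.3 ± 1.36 RPKM in pLN-SPF (SD, n = 3 each). The Thbs2 promoter peak (+0.3 kb, chr17:14693415-14694508) held 25.6, 31.3 and 16.4 RPKM in mLN-SPF, against 42.5, 42.7 and 40.9 RPKM in pLN-SPF. It lay lower in every mLN library, with a log2 fold change of -0.80 ± 0.21 (adjusted p = 0.0244) in SPF mice and -0.76 ± 0.24 (adjusted p = 0.0456) in GF mice.

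**Figure D3:**
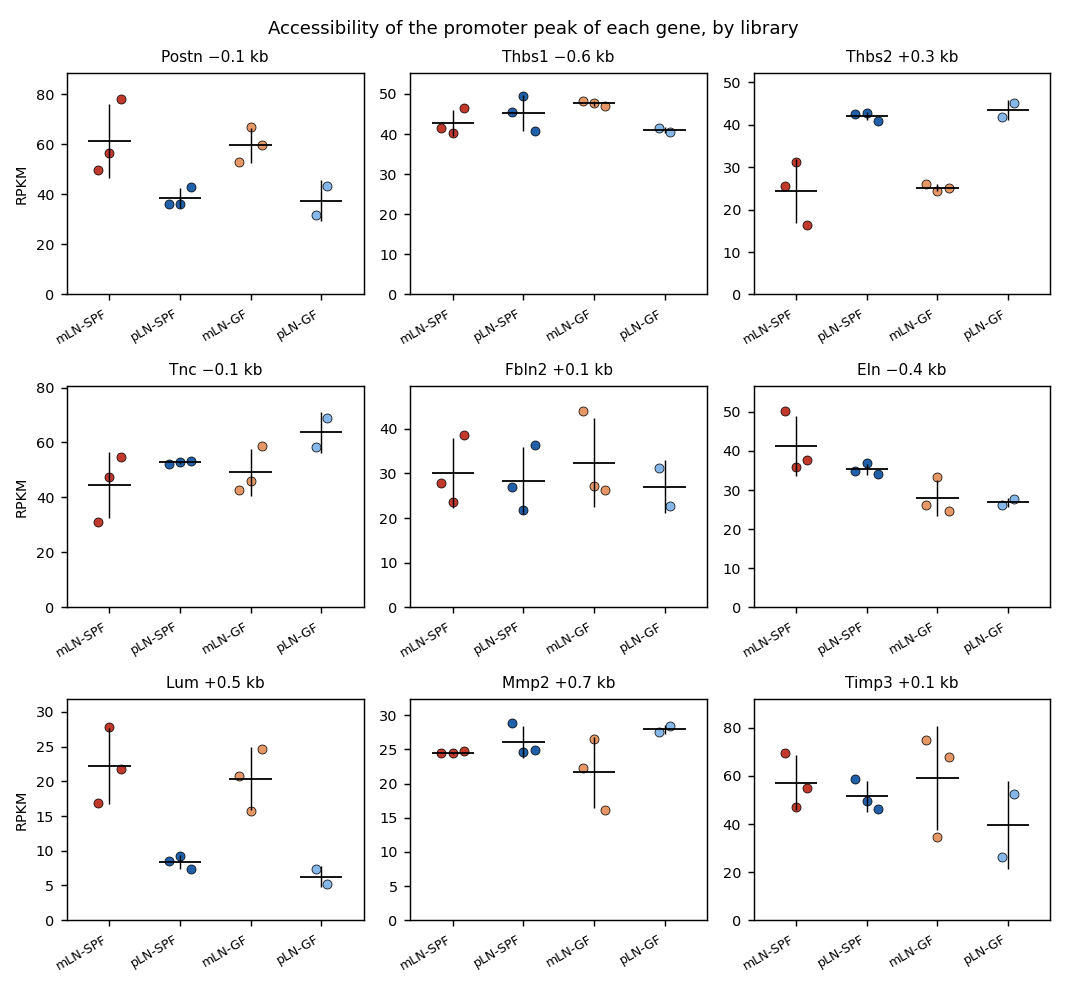
Accessibility (RPKM, linear axis from 0) of the promoter peak nearest to a start of each gene. Points are libraries, horizontal lines group means and vertical lines ± 1 SD. Lum is above 15 RPKM in all mLN libraries and below 10 RPKM in all pLN libraries, and Postn and Thbs2 are the other promoters at which mLN-SPF and pLN-SPF libraries do not overlap.

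The fold changes in SPF and in GF mice share no library. Their calls are not independent, since both use 1 estimate of the spread per peak from all 11 libraries. Of the 24 DARs of SPF mice, 24 had the same direction in GF mice, as had 99.0% of the SPF DARs among all peaks. Of the 24, 19 were also DARs in GF mice in the same direction, as were 7.28% of all peaks in both. Of the 23 DARs of GF mice, 23 had the same direction in SPF mice. The share of SPF DARs that were also DARs in GF mice was 79.2% for these genes and 67.6% for all peaks, and this difference was not tested. Over the 90 peaks the log2 fold changes in SPF and GF mice had a Pearson r of 0.916, and over all peaks 0.826, a description across peaks that share libraries and are not independent.

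**Figure D4:**
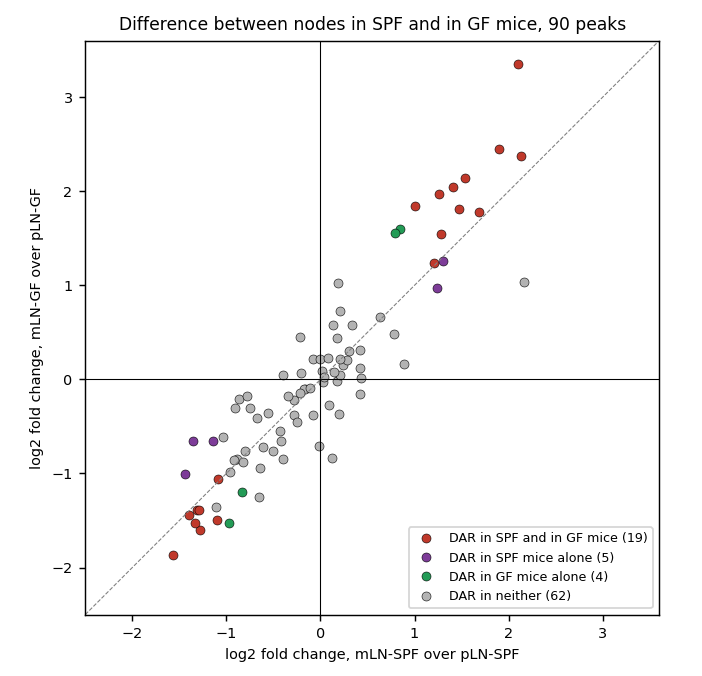
The log2 fold change of mLN-SPF over pLN-SPF (x axis) against that of mLN-GF over pLN-GF (y axis) for the 90 peaks, with the dashed line where both are equal. Of these, 19 are DARs in both, 5 in SPF mice alone, 4 in GF mice alone and 62 in neither, and each of the 28 DARs lies in the quadrant where both values have the same sign. Of the SPF DARs among all peaks, 99.0% had the same sign in GF mice.

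The second comparison asked whether colonization changes the chromatin of these genes. None of the 90 peaks was a DAR between mLN-SPF and mLN-GF (0.00236% of all peaks), between pLN-SPF and pLN-GF (0.00707% of all peaks), or between SPF and GF averaged over nodes (0.066% of all peaks) by limma. At an unadjusted p under 0.05, 6, 7 and 15 peaks passed in these comparisons, against 3441, 2636 and 4736 of all peaks. Of the 15 for the average, 12 were lower and 3 higher in SPF, against 2770 and 1966 of all peaks. Limma-voom on the recovered reads called 0 of the 90 peaks as well. Over all peaks it called 2 higher and 1 lower in SPF in mLN, and 1 higher and 46 lower in pLN. Averaged over nodes it called 18 higher and 119 lower of all peaks. The 95% interval of a single housing difference had a median half-width of 0.596 on the log2 scale in mLN and 0.667 in pLN. Smaller differences could not be told from none at a typical peak, and since the interval is unadjusted, larger ones could miss the call. In mLN, Thbs1 -367.8 kb (log2 -1.11 ± 0.25, adjusted p = 0.279) and the intronic Mmp2 -5.2 kb (log2 -1.06 ± 0.23, adjusted p = 0.262) passed 2-fold, lower in SPF, but were not called. Peaks also passed 2-fold in pLN without a call, some lower and some higher in SPF (log2 -2.11 to 1.30 over the 90 peaks). The lowest adjusted p in pLN was at Thbs1 +15.8 kb, lower in SPF (log2 -1.15 ± 0.34, adjusted p = 0.474). The interaction of location and housing was called at 0 of the 90 peaks (0.0% of all peaks), with 0 at an unadjusted p under 0.05, 0 by limma-voom, and a median half-width of 0.895.

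The peak with the lowest adjusted p for housing in mLN and on average over nodes was also the strongest peak of Timp3, at +7.9 kb in an intron (chr10:86310484-86310984). It held 59.4, 70.2 and 59.1 RPKM in mLN-SPF, against 112, 97.1 and 101 RPKM in mLN-GF. In pLN it held 79.3, 84.0 and 84.8 RPKM in pLN-SPF, against 91.2 and 110 RPKM in pLN-GF. The SPF libraries were below the GF libraries in both nodes, by a log2 difference of -0.71 ± 0.14 (adjusted p = 0.23) in mLN, -0.27 ± 0.15 (adjusted p = 0.871) in pLN and -0.49 ± 0.10 (adjusted p = 0.0974) on average, none of which passed the threshold.

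The peaks of other genes most like the Postn +103.0 kb peak over the 11 libraries, by Pearson r of log2(RPKM + 1), lay at Kcnj16 (-24.9 kb, chr11:110942869-110943419, r = 0.997), Dpp4 (-11.2 kb, chr2:62423136-62423668, r = 0.993) and Cd101 (-16.2 kb, chr3:101045423-101045992, r = 0.992). The Dpp4 peak averaged 23.7 RPKM in mLN-SPF, 5.17 in pLN-SPF, 24.6 in mLN-GF and 3.67 in pLN-GF. All libraries fall into the same nodes, so a high r restates a like difference between nodes.

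The other genes of the same pathways are given beside the share of all peaks called. In SPF mice that share was 6.49% higher and 4.27% lower in mLN, and in GF mice 8.55% and 4.62%. Of 72 peaks at 13 other matricellular genes with a peak (of 17 listed), 5 were higher and 4 lower in mLN-SPF (6.94% and 5.56%). The -26.5 kb peak of Ccn1, an integrin-binding CCN protein, averaged 36.5 RPKM in mLN-SPF and 6.55 RPKM in pLN-SPF (log2 2.32 ± 0.32, adjusted p = 0.0018), and the -116.1 kb peak of Ccn2 had a log2 fold change of 1.98 ± 0.37 (adjusted p = 0.00482). Lower in mLN-SPF were peaks of the tenascin gene Tnr (-50.9 kb, log2 -1.86 ± 0.39, adjusted p = 0.00813) and of Ccn3 (+12.4 kb, log2 -1.12 ± 0.27, adjusted p = 0.0153). Ccn2 and Ccn3 had DARs in both directions in SPF mice. Ccn3 was higher in mLN-SPF at +18.2 kb (log2 1.695 ± 0.349, adjusted p = 0.00762), and Ccn2 was lower at -132.0 kb (log2 -1.05 ± 0.326, adjusted p = 0.0451). In GF mice 12 of the 72 were higher and 5 lower in mLN (16.7% and 6.94%).

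Of 88 peaks at 15 other elastic fiber and microfibril genes (of 18 listed), 13 were higher and 1 lower in mLN-SPF (14.8% and 1.14%). In mLN-GF, 17 were higher and 3 lower (19.3% and 3.41%). Efemp1, which codes for fibulin 3, had the lowest adjusted p of this list in SPF mice, with a peak at -118.0 kb of 42.3 RPKM in mLN-SPF and 5.77 RPKM in pLN-SPF (log2 2.74 ± 0.36, adjusted p = 0.00162). The intronic +7.3 kb peak of Emilin2, an elastin-associated glycoprotein, came next by adjusted p among these genes (log2 1.42 ± 0.21, adjusted p = 0.00205). The peak lower in mLN-SPF lay at +33.6 kb in Ltbp1, which codes for a protein that binds latent TGF-beta to fibrillin (log2 -1.23 ± 0.33, adjusted p = 0.0239). Ltbp1 also had 3 DARs higher in mLN-SPF, with the lowest adjusted p at +28.5 kb (log2 1.384 ± 0.228, adjusted p = 0.00303).

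Of 30 peaks at 8 other small leucine-rich proteoglycan genes (of 10), 1 was higher in mLN-SPF, at -17.1 kb of Kera beside Lum (log2 1.12 ± 0.32, adjusted p = 0.0304), and 0 were lower. Of 73 peaks at 15 other metalloproteinase and inhibitor genes (of 17), 8 were higher and 4 lower in mLN-SPF. The higher ones included Adamts5 at -422.7 kb (log2 1.79 ± 0.29, adjusted p = 0.00291) and Adamts2 at +98.6 kb (log2 1.76 ± 0.37, adjusted p = 0.00874), an aggrecanase and a procollagen peptidase. The lower ones included Mmp3 at +7.6 kb (log2 -1.12 ± 0.28, adjusted p = 0.0165) and Reck, a membrane-bound inhibitor, at +33.5 kb (log2 -1.25 ± 0.32, adjusted p = 0.0199). Adamts5 also had a DAR lower in mLN-SPF, at -28.0 kb (log2 -2.082 ± 0.563, adjusted p = 0.0257), and so had Adamts2, at +76.9 kb (log2 -1.349 ± 0.345, adjusted p = 0.02).

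Of 69 peaks at 9 receptor genes, 10 were higher and 5 lower in mLN-SPF (14.5% and 7.25%). In mLN-GF, 11 were higher and 2 lower (15.9% and 2.9%). The thrombospondin receptor gene Cd47 had a peak at +69.8 kb with 59.9 RPKM in mLN-SPF and 23.3 RPKM in pLN-SPF (log2 1.32 ± 0.19, adjusted p = 0.00197), and Itgb3 one at +17.8 kb (log2 1.32 ± 0.26, adjusted p = 0.00657). Lower were peaks of Itga8 (-24.0 kb, log2 -1.24 ± 0.24, adjusted p = 0.00621), an integrin chain that binds matrix ligands of smooth muscle and mesenchyme, and of Itgav (-33.9 kb, log2 -1.61 ± 0.35, adjusted p = 0.00996). No peak of these 5 lists was a DAR between SPF and GF mice in mLN or in pLN by limma.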

How the data were processed

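The data are ATAC-seq values from 1 deposited table of merged peaks. According to the methods and the submitters' processing notes, STAR 2.5.3a placed the reads on GRCm38 (mm10), multi-mapping and duplicate reads were discarded (Picard), and MACS2 broad peaks of single libraries were joined where they overlapped, less blacklisted regions. The authors scaled the reads per merged peak with DESeq2 1.22. No shift of the cut sites is given in the sources used here. The deposited values are RPKM, which the authors computed per merged peak, and the table also holds their own fold changes and p-values and nearest genes, which were not used. Of 42434 entries 10 repeated a peak. Under the name of pLN-GF replicate 2, all 42434 entries held the average of the 5 other pLN columns (relative tolerance 1e-09), so this 1 column measures no sample and was left out, leaving 11 of 12 libraries. RPKM times width was a whole multiple of the step of its library in 100% of values (within 0.02 of a read), which gave the reads.

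Each peak was assigned to the nearest protein-coding TSS of GENCODE vM21. A peak within 1 kb of a TSS is a promoter peak. The test was that of limma 3.58.1 (R 4.3.3) on log2(RPKM + 1) (4 group means, 7 residual degrees of freedom, variances moderated along the mean, 2-sided), for 7 comparisons. The fit was tested on simulated data. Alternatives were pseudocounts of 0.5 and 5, a mean of at least 5 RPKM, median centring, quantile normalization, limma-voom on the recovered reads (whole in 100% of values), only the groups compared, a replicate block, peaks within 100 kb, the adjusted p alone, each library left out, and both mLN libraries numbered 2 left out.

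Named were, per gene, the promoter peak nearest to a start, the strongest peak, up to 3 DARs per direction in SPF mice and 2 in GF mice by adjusted p, the 3 peaks most like the leading one, and up to 2 genes per pathway list and direction. The genes, lists, motifs and rules were chosen with earlier results of these data known. Motif windows of 300 bp were read from GRCm38.p6.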

Additional observations from a re-analysis of the deposited data

How the results depend on the processing

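The counts of called peaks were recomputed under 22 alternatives in SPF and in GF mice and 21 for the average over housing. Counts that moved by over 1.5 times came mostly from leaving out 1 library, which gave 3 to 13 peaks higher and 6 to 15 lower in mLN-SPF, against 13 and 11 with all libraries, and 6 to 14 higher and 1 to 13 lower in mLN-GF, against 13 and 10. With the adjusted p alone, 18 peaks were lower in mLN-SPF (2873 of all peaks), against 11 with the 2-fold rule (1813 of all peaks). Averaged over housing, 27 were lower in mLN (6757 of all peaks), against 13 with the 2-fold rule (2568 of all peaks). Fewer libraries and a missing fold rule are part of how these alternatives are built, and no other cause was tested. All other alternatives were within 1.5 times, with 9 to 15 higher in mLN-SPF and 11 to 15 higher in mLN-GF. Over single named peaks, 1416 of 1540 recomputed values stayed on their side of the threshold, 124 lost the call, and 0 calls changed direction. The 1540 include values of peaks that had no call to lose. Of the calls themselves, 6 of 24 in SPF mice and 6 of 23 in GF mice held under every alternative fit. Housing and interaction gave 0 calls under each alternative.

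Same-numbered libraries of different groups shared little, with correlations of their deviations from the group means between -0.152 and 0.271, so the numbers were not taken to pair them. With the replicate number as a block, 13 peaks were higher and 11 lower in mLN-SPF (3008 and 2057 of all peaks). In mLN-GF, 15 were then higher and 13 lower (4355 and 3004 of all peaks). Depth limits the weakest peaks, and intervals cover counting error and the spread between libraries only as these samples show it.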
